A study of Homo sapiens with 6 samples.

Results

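FT282 is an immortalised secretory epithelial line of the human fallopian tube, and a clonal derivative of it was used. The tested cells stably expressed BORIS, the product of CTCFL and a germ-line paralog of the insulator protein CTCF, and the control cells stably carried an empty vector (EV). The BORIS cells gave an RNA-seq library, a BORIS ChIP-seq and a CTCF ChIP-seq, and the EV cells an RNA-seq library and a CTCF ChIP-seq. An input of FT282 cells was not used here. With 1 library of each kind there is no spread between replicates, no test between the cell populations was possible, and differences describe these libraries. Described here are the cancer-testis antigen families, the genes named MAGEA, MAGEB, MAGEC, GAGE, PAGE, XAGE, SSX, SPANX, CT45A, CT47A, CTAG and CSAG, with PRAME. They were picked by name from the deposited expression table, where 109 of 23278 rows matched. Of these, 10 match by letters alone, namely SSX2IP, which encodes a centrosomal partner of SSX2, and 9 CTAGE genes of another family. The remaining 99 rows are called the family members below. They lay on 73 distinct spans, and 98 of the 99 were X-linked, PRAME on chromosome 22 being the exception.

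Cancer-testis antigens are proteins whose genes are active in male germ cells, silent in most adult tissues and often switched on in tumours. In somatic cells, methylated CpG sites at their promoters are a main means of silencing, and loss of that methylation can switch many of them on together. BORIS is itself a cancer-testis antigen, and in other cell systems it was reported to bind and activate promoters of this class, among them those of MAGEA1 and of the NY-ESO-1 gene CTAG1B. MAGE proteins act as partners of RING ubiquitin ligases, SSX proteins repress transcription in the nucleus, and SPANX proteins are found in the sperm nucleus and its envelope. GAGE, PAGE and XAGE proteins are small related proteins, NY-ESO-1 is a well-known target of T cells in tumours, and PRAME represses retinoic acid receptor signalling.

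CTCFL stood at 53.3 FPKM in the BORIS library and 0.00532 FPKM in the EV library, in the direction of the labels, and CTCF at 20.8 and 21.1 FPKM in the same order. FPKM are scaled for transcript length and for library size, so levels can be set side by side between genes. Tubal markers KRT7 and PAX8 stood at 885 and 72.5 FPKM in the BORIS library, and at 1050 and 71.3 FPKM in the EV library. EPCAM was low at 0.574 and 0.732 FPKM and the tubal glycoprotein gene OVGP1 at 0.120 and 0.0951 FPKM, BORIS library first. Of 6 germ cell markers, DDX4, DAZL, DPPA3 and TEX11 were listed at 0 in both libraries. SYCP3, of the meiotic chromosome axis, stood at 0.445 FPKM in the BORIS library and 0.272 FPKM in the EV library, and POU5F1 at 0.0854 and 0.0970 FPKM. Of the ciliated cell markers found, FOXJ1 was listed at 0 in both libraries, RSPH1 stood at 0 in the BORIS library and 0.0187 FPKM in the EV library, and CAPS at 1.11 and 1.47 FPKM. The endothelial marker CDH5 stood at 30.2 FPKM in the BORIS library and 35.2 FPKM in the EV library, but VWF at 1.13 and 1.07 FPKM and PECAM1 at 0.0134 and 0.00815 FPKM. For fibroblasts, VIM stood at 1500 FPKM in the BORIS library and 1370 FPKM in the EV library. The collagen gene COL1A1 stood at 46.5 FPKM in the BORIS library and 64.8 FPKM in the EV library, and PDGFRB stood at 0.763 and 1.38 FPKM. Both carried a mark for lower in the authors' deposited table. The labels name 2 RNA library kits and do not say which library used which, so the kit and the vector cannot be told apart.

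For 4 members on which the results below turn, the promoter windows are given first, from 250 bases before to 50 bases after a start annotated by RefSeq in GRCh38.p14. Capitals mark CpG dinucleotides, the sites of DNA methylation, and each window is read 5′ to 3′ on the gene's strand. CT45A1 belongs to the cluster with most BORIS peaks, PRAME (the outermost of 3 annotated starts) is the only member off the X chromosome and carried a BORIS peak, MAGEA3 had no peak near it, and SPANXN3 had the highest level.
CT45A1 (chrX:135713389-135713688, plus strand): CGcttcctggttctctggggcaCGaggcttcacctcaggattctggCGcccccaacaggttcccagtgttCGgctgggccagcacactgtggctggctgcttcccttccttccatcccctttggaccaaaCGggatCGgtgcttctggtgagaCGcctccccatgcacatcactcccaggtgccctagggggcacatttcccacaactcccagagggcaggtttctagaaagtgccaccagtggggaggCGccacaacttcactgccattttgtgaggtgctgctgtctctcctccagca
PRAME (chr22:22559216-22559515, minus strand): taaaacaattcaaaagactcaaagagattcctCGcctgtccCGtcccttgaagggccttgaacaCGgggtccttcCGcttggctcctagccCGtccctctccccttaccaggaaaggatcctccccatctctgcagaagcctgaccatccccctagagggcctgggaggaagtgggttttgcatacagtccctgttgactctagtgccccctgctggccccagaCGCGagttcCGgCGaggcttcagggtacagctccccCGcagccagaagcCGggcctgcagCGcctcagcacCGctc
MAGEA3 (chrX:152698544-152698843, plus strand): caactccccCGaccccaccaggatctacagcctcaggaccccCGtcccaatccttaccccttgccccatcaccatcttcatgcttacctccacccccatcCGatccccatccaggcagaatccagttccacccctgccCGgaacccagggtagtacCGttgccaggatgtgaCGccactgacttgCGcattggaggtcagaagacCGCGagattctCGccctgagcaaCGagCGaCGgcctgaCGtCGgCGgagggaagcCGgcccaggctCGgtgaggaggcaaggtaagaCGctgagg
SPANXN3 (chrX:143517426-143517725, minus strand): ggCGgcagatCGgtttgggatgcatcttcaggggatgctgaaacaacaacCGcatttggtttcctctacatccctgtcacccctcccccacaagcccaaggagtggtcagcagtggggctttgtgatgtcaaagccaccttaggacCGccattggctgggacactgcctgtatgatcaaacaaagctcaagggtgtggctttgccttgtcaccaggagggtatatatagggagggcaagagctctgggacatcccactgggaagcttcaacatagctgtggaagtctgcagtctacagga
These windows held 8 CpG sites at CT45A1, 13 at PRAME, 19 at MAGEA3 and 4 at SPANXN3. DNA methylation was not measured in the study.

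The families as a whole were listed at or near 0 in both cell populations. In the BORIS library 13 of the 99 members (13.1%) were listed above 0 FPKM, and in the EV library also 13 (13.1%). Of all rows, 77.4% were above 0 in the BORIS library and 75.4% in the EV library, and among the other 864 X-linked rows 68.1% and 65.7%. Listed at 0 in both libraries were 79 members (79.8%), against 20.3% of all rows and 30.8% of the other X-linked rows. At least 0.1 FPKM was reached by 3 members (3.03%) in the BORIS library and 2 (2.02%) in the EV library, where 64.6% and 64.0% of all rows and 55.1% and 54.7% of the other X-linked rows did. Summed over the 99 members, the level was 1.03 FPKM in the BORIS library and 2.19 FPKM in the EV library. Read depth was not given and could not be recovered from the FPKM values, so no upper limit is attached to a 0. None of 72 ribosomal protein rows was at 0 in either library, and a 0 of a member is given only as listed. Of the 10 names that match by letters alone, 4 were listed at 0 in both libraries (CTAGE4, CTAGE6P, CTAGE9 and CTAGE15P). CTAGE10P stood at 0.0101 FPKM in the BORIS library and 0 in the EV library, CTAGE1 at 0.0692 and 0.0182 FPKM, CTAGE7P at 0.396 and 0.438 FPKM and CTAGE11P at 0.604 and 0.456 FPKM, in the same order. Only 2 were above 1 FPKM, SSX2IP at 4.94 FPKM in the BORIS library and 5.10 FPKM in the EV library, and CTAGE5, which encodes an export factor of the endoplasmic reticulum, at 6.35 and 5.72 FPKM.

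The MAGEA, MAGEB and MAGEC genes held 25 rows and summed to 0.00997 FPKM in the BORIS library and 0.0590 FPKM in the EV library. Of the 14 MAGEA rows 0 were above 0 in the BORIS library and 4 in the EV library. MAGEA11, which encodes a coregulator of the androgen receptor, was listed at 0 in the BORIS library and at 0.0212 FPKM in the EV library. MAGEA12 and MAGEA5 were each listed at 0 in the BORIS library and at 0.0126 FPKM in the EV library. MAGEA10-MAGEA5,MAGEA5, a read-through row that shares reads with its neighbours, was listed at 0 and 0.00000550 FPKM, BORIS library first. MAGEA1, MAGEA3 and MAGEA4, classic tumour antigens of the family, were listed at 0 in both libraries. MAGEB2 was the only MAGEB row above 0, at 0.00997 FPKM in the BORIS library and 0 in the EV library, and MAGEC3 the only MAGEC row, at 0 in the BORIS library and 0.0126 FPKM in the EV library. None of these 25 rows reached 0.05 FPKM in either library.

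The GAGE genes are a tandem array of near-identical copies, with 19 rows on 8 spans, and all 19 were listed at 0 in both libraries. The same held for 7 CT47A rows, 6 CT45A rows, 3 CSAG rows, CTAG1B and CTAG2 (the NY-ESO-1 and LAGE-1 genes) and PRAME. In the PAGE family, PAGE4, expressed in prostate and other reproductive tissues, stood at 0.0486 FPKM in the BORIS library and PAGE3 at 0.0328 FPKM, and both were listed at 0 in the EV library. XAGE5 stood at 0.0514 FPKM in the BORIS library and was listed at 0 in the EV library, and the other 7 XAGE rows were at 0 in both. Near-identical copies share reads, and 41 of the 99 rows lay on a span with another member, so the split of reads among copies is uncertain.

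The SSX genes, known from their fusion to SS18 in synovial sarcoma, were above 0 in 4 of 10 rows. SSX1 stood at 0.109 FPKM in the BORIS library and 0.0845 FPKM in the EV library, a log2 ratio of 0.24 with 0.05 FPKM added to each value. SSX5 stood at 0.0264 and 0.0164 FPKM and SSX8 at 0.0112 and 0.0139 FPKM, BORIS library first. SSX6 was listed at 0 in the BORIS library and at 0.0160 FPKM in the EV library.

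SPANX was the family with the highest levels. SPANXN3 stood at 0.357 FPKM in the BORIS library and 1.10 FPKM in the EV library, a log2 ratio of -1.50 with 0.05 FPKM added to each value. It was the only member of any family to reach 1 FPKM. SPANXN5 stood at 0.197 FPKM in the BORIS library and 0.743 FPKM in the EV library, a log2 ratio of -1.68. Together these genes made up 53.6% of the summed level of all 99 members in the BORIS library and 84.4% in the EV library. Without them the sum was 0.480 FPKM in the BORIS library and 0.341 FPKM in the EV library, so the lower sum in the BORIS library rested on them. In the authors' deposited table SPANXN3 had a q-value of 0.268 and SPANXN5 of 0.336, and neither was marked as changed. These were the only 2 members (2.02%) with a status of OK in the authors' deposited table, against 57.1% of all rows. All other members had the status NOTEST, that is, no test by the authors. SPANXC was listed at 0 in the BORIS library and at 0.0864 FPKM in the EV library, and SPANXN4 at 0.0612 and 0 FPKM in the same order. The joined row SPANXD,SPANXE stood at 0.0824 FPKM in the BORIS library and 0 in the EV library, while SPANXE on the same span stood at 0.0000457 and 0 FPKM. SPANXA2-OT1, an RNA gene that overlaps SPANXA2, stood at 0.0469 FPKM in the BORIS library and 0.0646 FPKM in the EV library.

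**Figure D1:**
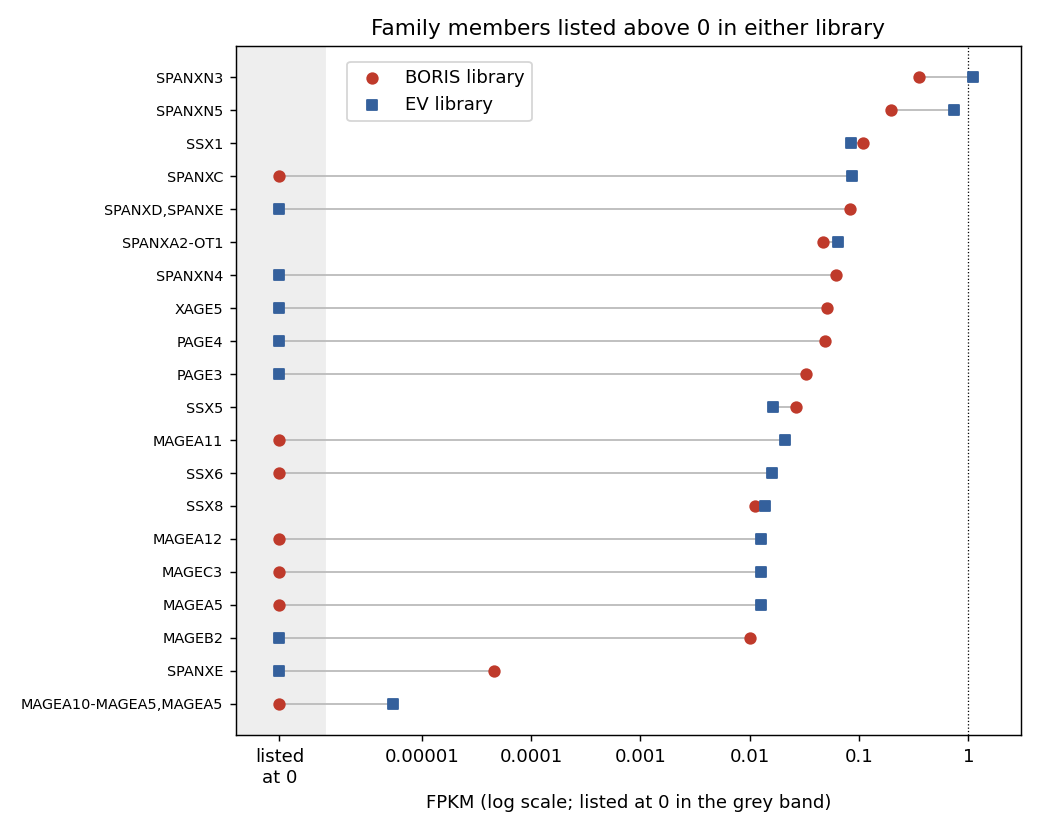
FPKM on a log axis for the 20 family members listed above 0 in the BORIS library (red circles) or the EV library (blue squares), with values listed at 0 in the grey band. Only SPANXN3 crosses the dotted line at 1 FPKM, in the EV library, and 14 of the 20 genes are listed at 0 in 1 of the libraries.

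Differences were counted with a rule for low levels. A row was called higher or lower when its log2 ratio, with 0.05 FPKM added to both values, reached 1 or -1 and the larger value reached 0.05 FPKM. By this rule 3 members (3.03%) were higher with BORIS, SPANXD,SPANXE, SPANXN4 and XAGE5, and 3 (3.03%) were lower, SPANXC, SPANXN3 and SPANXN5. Over all rows the rule called 2.72% higher and 1.42% lower. The 79 members listed at 0 in both libraries could not be called, and 8 members had at least 0.05 FPKM in either library, 6 of which are those called. A member that reached this minimum in 1 library and was listed at 0 in the other had to be called, so nothing is read from these counts. Among the 3686 rows with at least 0.05 FPKM in either library and less than 1 FPKM in both, 10.3% were called higher and 4.50% lower. By a rule with 1 FPKM added and a minimum of 1 FPKM, 0 members were called in either direction, where 0.778% of all rows were higher and 0.503% lower. The authors' deposited table marked 0 members, where 3.32% of all rows were marked higher and 3.79% lower. The authors' deposited table did not mark CTCFL either, with a q-value of 0.484 at 53.3 FPKM in the BORIS library and 0.00532 FPKM in the EV library, so a missing mark does not show that a gene near 0 in a library was unchanged. Of the 6 members called by the rule for low levels, those called higher were all listed at 0 in the EV library, and SPANXC at 0 in the BORIS library.

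Related genes gave a scale for these levels. The MAGE genes in use in many tissues (MAGED, MAGEE, MAGEF, MAGEH, MAGEL and their kin) had 6 of 11 members at or above 1 FPKM. Of all 23278 rows, 12496 reached 1 FPKM in either library, so nothing is read from this count. MAGEL2 and MAGED4B were listed at 0 in both libraries. MAGEE2 stood at 0.00677 FPKM in the BORIS library and 0 in the EV library. MAGED2 stood at 111 FPKM in the BORIS library and 103 FPKM in the EV library. MAGEF1 stood at 15.6 FPKM in each. MAGEH1 stood at 5.23 FPKM in the BORIS library and 6.93 FPKM in the EV library, and the authors' deposited table marked it as lower. MAGEE1 stood at 0.0903 and 0.183 FPKM and NDN at 0.00821 and 0.0339 FPKM, BORIS library first, and 0 of the 11 were called by either rule. Over all rows the rule for low levels called 2.72% higher and 1.42% lower, and the rule with 1 FPKM added called 0.778% and 0.503%. All 22 PRAMEF rows, relatives of PRAME on chromosome 1, were listed at 0 in both libraries.

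Among cancer-testis genes outside the families, 23 of 49 were listed at 0 in both libraries and 8 reached 1 FPKM. Of all 23278 rows, 20.3% were listed at 0 in both libraries and 12496 rows reached 1 FPKM in either. Of those 8, CEP55, PBK, ATAD2, TTK, CASC5 and OIP5 serve cell division or growth, with CEP55 at 77.5 FPKM in the BORIS library and 81.7 FPKM in the EV library. The sperm proteins CABYR and SPA17 stood at 4.96 and 4.67 FPKM in the BORIS library and at 4.94 and 4.45 FPKM in the EV library. By the rule for low levels PLAC1, a trophoblast gene, was higher, at 0.635 FPKM in the BORIS library and 0.147 FPKM in the EV library. TEX15, needed for meiosis and transposon silencing in mouse testis, was also higher, at 0.814 FPKM in the BORIS library and 0.236 FPKM in the EV library, and the authors' deposited table marked TEX15 but not PLAC1. DKKL1, an acrosomal protein gene, was called lower, listed at 0 in the BORIS library and at 0.0546 FPKM in the EV library. Over all rows this rule called 2.72% higher and 1.42% lower, and the authors' deposited table marked 3.32% higher. Neither PLAC1 nor TEX15 had a BORIS peak within 1 kb, as 10 of the 49 genes did, so nothing is read from these 2. For comparison, 56.1% of the 22891 rows whose chromosome the lists cover had a BORIS peak that near. PLAC1 had a CTCF peak within 1 kb in both cell populations, and TEX15 had none.

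A list of 26 genes held DNA methyltransferases, repressors that silence germ-line genes and also TET1, TET2 and TET3, which encode enzymes that work against DNA methylation. All 26 reached 1 FPKM and 0 were called by either rule, with a median log2 ratio of -0.03 with 1 FPKM added, against 0.00 over all 12496 rows with 1 FPKM in either library. Over all rows the rule for low levels called 2.72% higher and 1.42% lower, and the rule with 1 FPKM added called 0.778% and 0.503%. The maintenance DNA methyltransferase gene DNMT1 stood at 39.4 FPKM in the BORIS library and 42.9 FPKM in the EV library. TET3 and TET1 stood at 3.20 and 1.13 FPKM in the BORIS library and at 4.50 and 1.52 FPKM in the EV library, and the authors' deposited table marked these 2 of the 26 as lower and 0 as higher. Of all rows 3.79% were marked lower and 3.32% higher, while 57.1% were tested by the authors, so nothing is read from 2 genes. E2F6, a repressor of germ-line genes, stood at 3.12 FPKM in the BORIS library and 2.93 FPKM in the EV library.

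**Figure D2:**
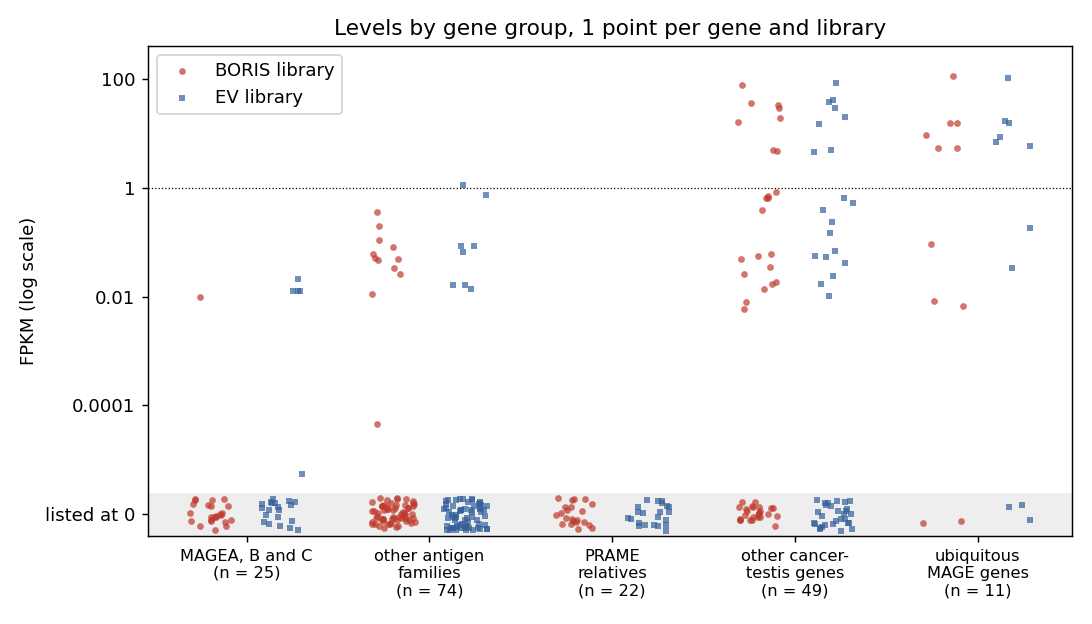
FPKM on a log axis by gene group, 1 point per gene, in the BORIS library (red circles) and the EV library (blue squares), with genes listed at 0 in the grey band. The MAGEA, MAGEB and MAGEC genes and all 22 PRAME relatives lie below 0.05 FPKM. Of the 11 ubiquitous MAGE genes, 6 lie above 1 FPKM in both libraries and 2 are listed at 0 in both. Of all 23278 rows, 12496 reach 1 FPKM in either library.

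The second question was whether BORIS or CTCF occupied these loci. A member was counted as near a peak when any base of the peak lay within the stated distance of its span in the table. Rows on a shared span were each counted. BORIS peaks in BORIS cells lay within 1 kb of 8 members (8.08%) and within 10 kb of 9 (9.09%). Over all rows on the chromosomes of the peak lists the shares were 56.1% and 67.0%, and over all X-linked rows 32.3% and 40.1%. Over the 266 other X-linked rows that were also listed at 0 in both libraries, they were 16.9% within 1 kb and 26.7% within 10 kb. The plan named X-linked rows below 1 FPKM in both libraries instead, and shares for that set are not given here. CTCF peaks of BORIS cells lay within 1 kb of 11 members (11.1%) and within 10 kb of 16 (16.2%). CTCF peaks of EV cells lay within 1 kb of 10 members (10.1%) and within 10 kb of 15 (15.2%). Of the 266 other X-linked rows listed at 0, 36.5% and 51.9% had a CTCF peak of BORIS cells within these distances, and 33.1% and 52.3% had a CTCF peak of EV cells. Over all X-linked rows those shares were 46.9% and 61.5% in BORIS cells and 44.0% and 59.3% in EV cells, and over all rows 59.1% and 75.5% in BORIS cells and 57.2% and 73.9% in EV cells. Longer spans meet more peaks, and the median span was 6.75 kb for the members and 3.31 kb for the other X-linked spans listed at 0. Over all X-linked spans without the members it was 19.3 kb, so the shares over all X-linked rows come from longer spans. Reads from near-identical copies may be dropped or shared when they are mapped, and the part of this in the counts of peaks was not tested.

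Most members lay far from any peak. Over the 73 spans the median distance to the nearest BORIS peak was 183 kb, against 141 kb for 189 other X-linked spans listed at 0. For CTCF it was 47.9 kb in BORIS cells and 48.4 kb in EV cells, against 17.5 kb and 19.1 kb for those other spans. Over 370 other X-linked spans below 1 FPKM in both libraries, the median was 83.1 kb for BORIS peaks. For CTCF peaks over these 370 spans it was 7.97 kb in BORIS cells and 8.84 kb in EV cells. No peak of any of the 3 lists lay within 10 kb of 82 of the 99 members. These included 18 of 19 GAGE rows, 7 of 7 CT47A rows, 13 of 14 MAGEA rows and all 11 MAGEB and MAGEC rows. The GAGE array of 213 kb held 1 BORIS peak and no CTCF peak of either cell population, and the 71.0 kb that hold MAGEA6, MAGEA12, MAGEA2 and MAGEA3 held none of any list. MAGEA1 lay 114 kb from the nearest BORIS peak, 39.9 kb from the nearest CTCF peak in BORIS cells and 39.8 kb from that in EV cells.

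**Figure D3:**
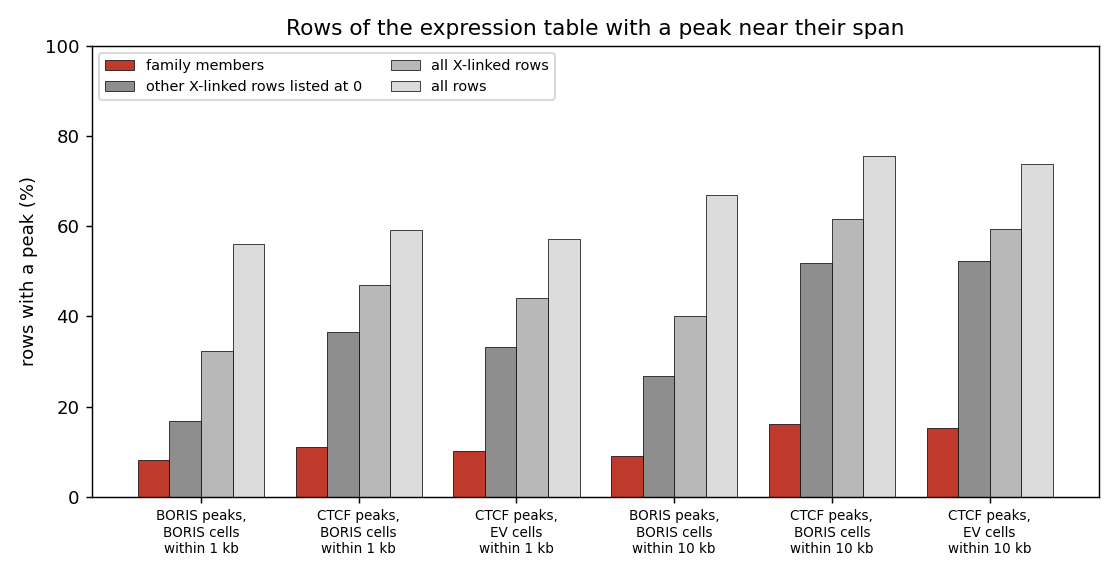
Share of rows (%) with a peak of each list within 1 kb or 10 kb of their span, for the 99 family members (red), the 266 other X-linked rows listed at 0 in both libraries (dark grey), all X-linked rows (mid grey) and all rows on the chromosomes of the lists (light grey). The members are lowest in all 6 groups of bars, for example at 8.08% against 16.9% for BORIS peaks within 1 kb.

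The CT45A cluster was the exception. All 6 CT45A rows had a BORIS peak within 1 kb, and they made up 6 of the 8 members that did. Among the other 93 members, BORIS peaks lay within 1 kb of 2 (2.15%) and within 10 kb of 3 (3.23%). CTCF peaks of BORIS cells lay within 1 kb of 5 of these 93 (5.38%) and within 10 kb of 10 (10.8%), and CTCF peaks of EV cells within 1 kb of 4 (4.30%) and within 10 kb of 9 (9.68%). Each of these counts holds 3 rows, SPANXA1,SPANXA2, SPANXA2 and SPANXA2-OT1, that share a span of 147228 bp and the same CTCF peak. Its highest point lay inside that span, 32349 bp from the nearer end in BORIS cells and 32355 bp in EV cells. The cluster spans 124 kb on the X chromosome (134847184 to 134971244, hg19) and, with 10 kb on each side, held 8 BORIS peaks, 10 CTCF peaks of BORIS cells and 10 CTCF peaks of EV cells. All 8 BORIS peaks overlapped a CTCF peak of both cell populations, so CTCF was called at these places without BORIS as well. The same share over the whole BORIS list was not counted, so the overlap is not read as particular to the cluster. At CT45A1 the BORIS peak lay at 134846935 to 134847218, with its highest point 92 bp outside the lower end of the span. RefSeq gives CT45A1 the plus strand, so this is the side of its start. At CT45A4 and CT45A5 the BORIS peaks lay at 134936613 to 134937012 and at 134953872 to 134954271, each with its highest point 99 bp outside the higher end. At CT45A6 the peak lay at 134971223 to 134971458, 84 bp outside the higher end. The joined span of CT45A2 and CT45A3 had a BORIS peak at 134865937 to 134866336, 97 bp outside its lower end, and another inside it at 134883211 to 134883610. Strands of the rows other than CT45A1 were not looked up.

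Scores in the peak lists are the authors' own and have no stated unit, and they are used only within a list. Of the 10 equal parts of the BORIS list from lowest to highest score, the peaks with scores of 541, 721, 551 and 737 lay in part 9, those at CT45A1 and CT45A6 with 323 and 141 in parts 7 and 2. These 4 peaks in part 9 were each 400 bp long, and the CTCF peaks of BORIS cells at the same places were each 392 bp long, with scores of 1042, 1375, 1059 and 1402. The BORIS scores fell into pairs, 541 with 551 and 721 with 737. The part of reads shared between near-identical copies in these like lengths and scores was not tested. All 6 CT45A rows were listed at 0 FPKM in both libraries. Of the 266 other X-linked rows listed at 0 in both libraries, 16.9% had a BORIS peak within 1 kb.

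**Figure D4:**
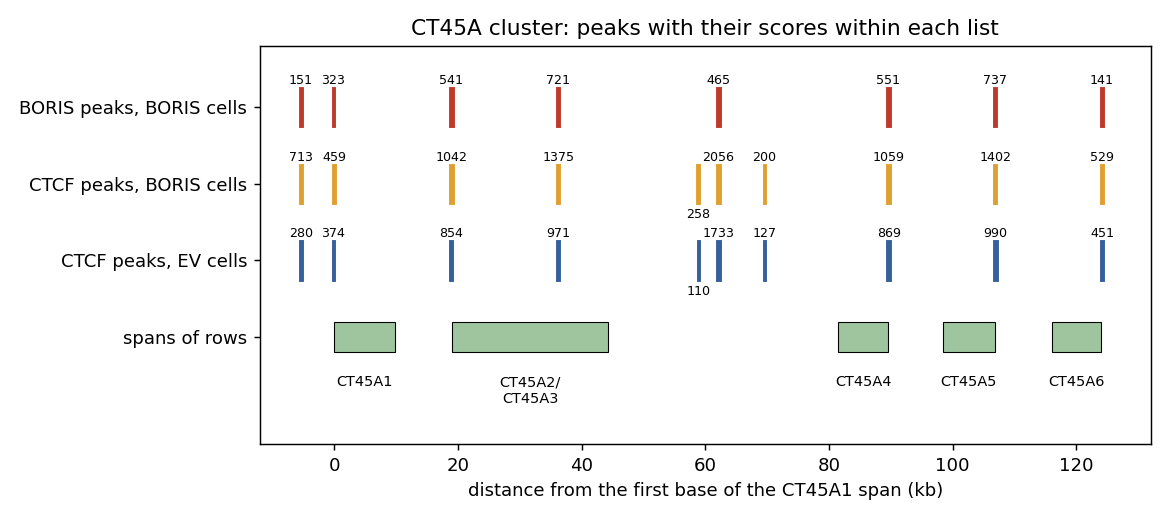
Map of the CT45A cluster by distance from the first base of the CT45A1 span (kb), with the spans of the rows in green and the peaks of each list in colour, each with its score in its own list. Each of the 8 BORIS peaks stands over CTCF peaks of BORIS cells and EV cells, and 5 of them lie within 100 bp of an end of a CT45A span by their highest point.

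PRAME was the only member off the X chromosome and also had a BORIS peak at its end. The PRAME row spans 22890122 to 22901696 on chromosome 22 (hg19). Its BORIS peak lay at 22901594 to 22901875, with the highest point 41 bp outside the higher end of the span, and had a score of 292, in part 6 of 10 of the list. A CTCF peak stood at the same place in BORIS cells (22901543 to 22901837, score 538, part 4 of its list) and in EV cells (22901585 to 22901840, score 278, part 4 of its list). RefSeq places PRAME on the minus strand, so this is the side of its start. PRAME was listed at 0 FPKM in both libraries. A short form of the CTCF core motif (CC, any 3 bases, AG, any 2 bases, GGC) was searched on both strands, and the 300-base PRAME window printed above held them at bases 150 to 161 on the gene's strand and, without overlap, at bases 206 to 217 on the other strand. Of all 35116 promoter windows 10.6% held the letters, as did 8 of the 75 windows of family members (10.7%). Neither of the other 2 PRAME windows held them, nor did the CT45A1 window. The search took exact matches alone, so a window without one is not shown to lack a CTCF site. The windows are in GRCh38 and the peaks in hg19, and no position was carried from one to the other.

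CTAG1B spans 153845864 to 153847522 on the X chromosome. A BORIS peak lay at 153849362 to 153849601, 1840 bp beyond the higher end, with a score of 162 in part 3 of 10. It overlapped a CTCF peak in BORIS cells (score 2710) and in EV cells (score 1936), each in part 9 of its list. A further pair of CTCF peaks within 10 kb was called in BORIS cells and in EV cells alike, with scores of 2549 and 2248 in BORIS cells and 2100 and 1646 in EV cells. CTAG2 had no peak of any list within 10 kb, the nearest being 30.6 kb away for BORIS and 22.4 kb for CTCF in BORIS cells and in EV cells.

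**Figure D5:**
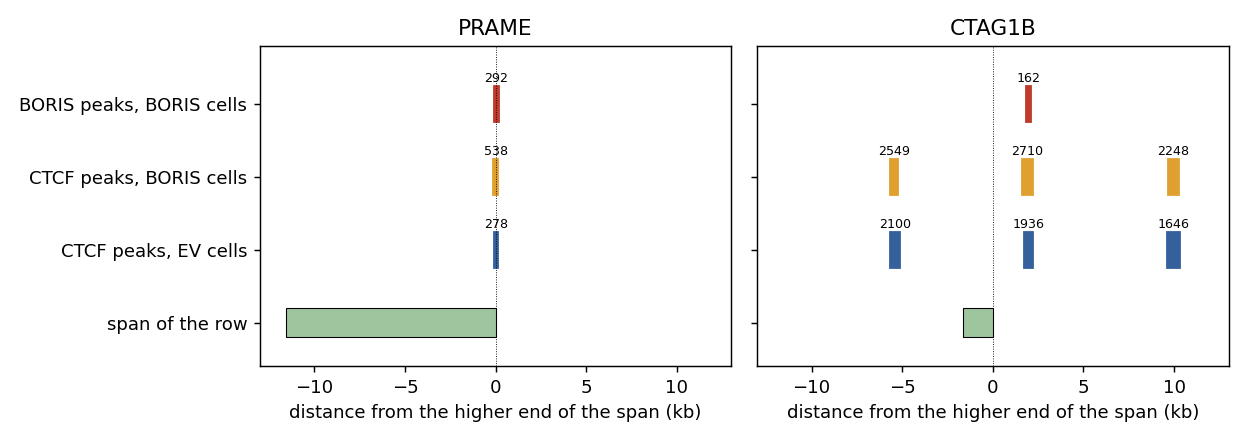
Peaks of each list around PRAME (left) and CTAG1B (right) by distance from the higher end of the span (kb), with the span in green and each peak's score in its own list. At PRAME a BORIS peak and a CTCF peak of both cell populations lie at the end of the span, and at CTAG1B the 1 BORIS peak lies 1.84 kb beyond it.

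GAGE10 carried the last BORIS peak within 1 kb of a member, at 49165581 to 49165889 on the X chromosome, inside its span. Its score was 139, in part 2 of 10, and it overlapped no CTCF peak of either cell population. In all, 10 BORIS peaks lay within 10 kb of a member, 7 of them at CT45A genes, and 9 of the 10 overlapped CTCF peaks of both cell populations. Within the same distance were 17 CTCF peaks of BORIS cells and 16 of EV cells. Overlaps over the whole lists were not counted, so these shares are not read as particular to the members. Each of the 16 was also called in BORIS cells, and 1 of the 17 was called in BORIS cells alone. That peak lay inside SSX5, at 48054636 to 48054811 on the X chromosome, with a score of 105 in part 1 of 10, and overlapped no BORIS peak. SSX5 stood at 0.0264 FPKM in the BORIS library and 0.0164 FPKM in the EV library. The members that were called higher or lower by the rule for low levels (SPANXD,SPANXE, SPANXN4, XAGE5, SPANXC, SPANXN3 and SPANXN5) had no peak of any list within 10 kb. The same held for 82 of all 99 members, so nothing is read from it. Near PRAMEF rows, BORIS peaks and CTCF peaks of BORIS cells lay within 1 kb of 0 of 22, and CTCF peaks of EV cells of 4. Over all rows on the chromosomes of the lists the shares were 56.1%, 59.1% and 57.2%, in that order. The 4 rows were PRAMEF18, PRAMEF19, PRAMEF3 and the joined row PRAMEF22,PRAMEF3, and the number of distinct peaks behind them was not counted.

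The promoter windows differed among the families in CpG content. RefSeq windows were found for 59 of 99 symbols, 75 windows in all, with a median of 11 CpG sites in 300 bases, against 14 on the X chromosome and 14 over all windows. SPANX windows had a median of 5.00 and a range of 1 to 8, MAGEA windows a median of 14 and a range of 9 to 21, and GAGE windows 11 to 13. SPANXN3, with the highest level among the members, had 4 CpG sites and SPANXN5, the next in level, had 1, but SPANXN2 with 1 and SPANXN1 with 3 were listed at 0 FPKM in both libraries. At the other end, MAGEA3 with 19 was listed at 0 in both libraries, MAGEB2 with 21 stood at 0.00997 FPKM in the BORIS library and 0 in the EV library, and MAGEA11 with 21 at 0 in the BORIS library and 0.0212 FPKM in the EV library. No relation between CpG sites and level was tested.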

How the data were processed

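RNA-seq and ChIP-seq of FT282 cells with BORIS or an empty vector were used, 1 library per group. The deposited expression table gives FPKM values with the authors' p-values and q-values. The submitters' processing notes list hg19 and the tools TopHat2, Bowtie and Cufflinks (2.0.0), with no roles. The authors' deposited peak lists give intervals, a score without a stated unit and a position inside each peak, and the peak caller and its threshold are not given in the sources used here. Read depth was unknown. Ratios, counts and overlaps (1 bp minimum) were computed with Python 3.11.15 and pandas 2.3.3. Calls and overlaps were tested on simulated data. Shares of members are read against the same shares of all rows. Members and gene lists were chosen with earlier results of these data known. Named were PRAME, members with at least 0.1 FPKM, the 2 highest of each family, the 5 most different by the rule for low levels, members with a BORIS peak within 1 kb, CTCF peaks of 1 cell population alone within 10 kb, and the 2 most different genes of each list. DKKL1, MAGEH1, SSX8, SPANXA2-OT1, genes called in lists of related genes, markers and classic antigens at 0 were named after their values were seen. RefSeq promoter windows are in GRCh38.p14.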

Additional observations from a re-analysis of the deposited data

How the results depend on the processing

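Of 80 alternatives for 14 counts, 55 stayed within 1.5 times the count reported. With members of status OK alone, 2 members were above 0 FPKM in the BORIS library and 2 in the EV library, and 0 were higher by the rule for low levels. With all 109 names, 7 members reached 0.1 FPKM in the BORIS library and 6 in the EV library, and 14 had a BORIS peak within 10 kb. At a minimum of 0.05 FPKM the counts of members were 6 in the BORIS library and 5 in the EV library, and at 0.5 FPKM 0 in the BORIS library. By the rule for low levels, 0 were higher with 0.1 or 1 FPKM added or a minimum of 0.1 FPKM, and 0 were lower with 1 FPKM added. With 0.1 FPKM added to the 1 FPKM rule, 1 member, SPANXN3, was lower. Without CT45A genes, a choice made after seeing the data, BORIS peaks lay within 1 kb of 2 members and within 10 kb of 3, CTCF peaks of BORIS cells of 5 and 10, and CTCF peaks of EV cells of 4 and 9. With distance to either end, CTCF peaks of BORIS cells lay within 1 kb of 7. With peaks at or above the median score alone, CTCF peaks lay within 1 kb of 4 members and within 10 kb of 8, in BORIS cells and in EV cells alike. No paired analysis was possible because each group held 1 sample. Unknown depth limits every value listed at 0.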
